A study of Mus musculus with 6 samples.

Results

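The TNF superfamily comprises tumour necrosis factor, its related ligands and their receptors. Its genes were taken from the deposited table as the protein-coding rows whose symbol was Tnf, began with Tnfsf or Tnfrsf and a number, or was Lta, Ltb, Ltbr, Fas, Fasl, Cd27, Cd40 or Cd40lg. This gave 40 genes, 16 ligands and 24 receptors, of 36977 genes listed. Cd70 was not analysed here. Bulk RNA-seq was deposited for colonic tissue of 6 wild-type (WT) mouse libraries, 3 from mice given dextran sodium sulfate (DSS) and deoxycholic acid (DCA) and 3 from mice given DSS, numbered as replicates 1, 2 and 4 in each group. DSS is a polysaccharide that injures the colonic epithelium when drunk, and DCA is a secondary bile acid made by gut bacteria. The protocol label, the same for all 6 libraries, gives 2% DSS for 7 days and then DCA by enema, whereas the treatment label gives DCA for the DSS+DCA libraries only. The sources used here do not give strain, age, sex or what the DSS mice received in place of the DCA enema. Nothing in the labels says that the libraries of a group came from separate animals, so the p-values measure the spread between these libraries.

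Ligands of this superfamily are made mostly by immune cells, as membrane proteins that can be shed, and act as trimers on receptors of lymphocytes, myeloid cells, epithelium and stroma. Receptors such as Tnfrsf1a, Fas and Tnfrsf10b carry death domains that recruit caspase adaptors, while others bind TRAF proteins and activate NF-κB. In the gut, TNF drives inflammation in colitis, the lymphotoxins organise lymphoid tissue, and BAFF and APRIL sustain B cells and plasma cells.

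No member passed the test. Of the tested members, 3 had groups that overlapped neither on the deposited FPKM nor after the rescaling to protein-coding FPKM described further on. These were 1 ligand that was higher with DCA and 2 receptors that were lower. On the deposited FPKM the groups did not overlap in 23.6% of all tested genes. After the rescaling 4304 of the 14611 tested genes lay wholly above the DSS libraries and 788 wholly below. The share of all genes that did not overlap on both scales was not computed. Lymphotoxin beta (Ltb) averaged 5.05 ± 2.17 FPKM in DSS+DCA libraries and 1.76 ± 0.0136 FPKM in DSS libraries (SD, n = 3 each), a 2.87-fold ratio. RANK (Tnfrsf11a), the receptor of RANK ligand, averaged 6.08 ± 1.73 FPKM in DSS+DCA libraries and 12.2 ± 0.791 FPKM in DSS libraries, a ratio of 0.499. Death receptor 6 (Tnfrsf21) had a ratio of 0.569 of DSS+DCA over DSS. Tnfsf13 and Tnfsf12, with ratios of 0.252 and 2.86, had groups that overlapped on the deposited FPKM. FPKM is the fragments of a gene divided by the length of its transcripts and by the number mapped in that library. The 23 members that averaged 0.5 FPKM or more across all libraries, 8 ligands and 15 receptors, were among 14611 genes tested with limma on log2(FPKM + 1), two-sided. Of these members 0 were called at a Benjamini-Hochberg adjusted p under 0.05, where 0.561% of all tested genes were called (82 genes, 19 higher and 63 lower in DSS+DCA). The split of all calls turned to 79 higher and 45 lower when the libraries were rescaled to the same total of nuclear protein-coding FPKM.

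At an unadjusted p under 0.05 limma gave 5 of the 23 members, or 21.7%, beside 16.7% of all tested genes. Of these, 2 were higher in DSS+DCA, beside 4.26% of all tested genes, and 3 were lower, beside 12.4%. The groups did not overlap in 5 members, or 21.7%, beside 23.6% of all tested genes. Ltb was the member wholly above the DSS libraries, where 5.8% of all tested genes were, and Tnfrsf11a, Tnfrsf21, Ltbr and Tnfrsf10b lay wholly below them, where 17.8% of all tested genes did. The shares of members that did not overlap lay near those of all genes. Once rescaled, 6 members lay wholly above and 2 wholly below, beside 4304 and 788 of the 14611 genes tested. The median fitted log2 change over the tested members was -0.16, beside -0.09 over all tested genes, and single members ran from -1.36 to 1.19. Of the tested members 16 (69.6%) had a fitted value below 0 and 7 above it, beside 60.5% of all tested genes below. After the protein-coding rescaling 7 (30.4%) were below and 16 above, beside 25.1% of all tested genes below. That rescaling moved the median of all tested genes by 0.32 to 0.23, and the member median, 0.11, then lay -0.12 from it.

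The authors' deposited table marks 4 of the 40 members as changed, or 10%, beside 3.17% of all its genes. These shares rest on unlike sets. All members are protein-coding and 23 of the 40 averaged 0.5 FPKM or more, whereas 14611 of all 36977 genes, noncoding ones included, did. The authors' deposited table gives folds of 2.87 for Ltb (q = 0.00406), 0.499 for Tnfrsf11a (q = 0.00615), 7.65 for Tnfrsf13c (q = 0.0239) and 0.252 for Tnfsf13 (q = 0.0497), each of DSS+DCA over DSS. The sources used here do not name the authors' test, and 0 of these 4 genes passed limma's adjusted threshold.

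Promoter windows, 250 bases before to 50 bases after each start, were matched for 31 of the 40 members in the RefSeq table of build GRCm38.p6. They were searched on both strands for the 10-letter κB consensus, the DNA motif bound by NF-κB. The consensus was found in 3 of these members, Ltb, Tnfrsf8 and Tnfrsf9, or 9.68%, beside 5.14% of the 27025 genes with a window, and Ltb was the only one of the 3 among the tested members. The windows of Ltb and Tnfrsf11a are shown because these genes had the smallest p of any ligand and any receptor. Capitals mark the κB match, which in Ltb begins 87 bases before the RefSeq start and is read on the opposite strand. The gene positions given elsewhere come from GENCODE M21, whose start of Ltb is not the same. The Ltb window lies at chr17:35194257-35194556 and the Tnfrsf11a window, which holds no match to these letters, at chr1:105780473-105780772, both on the plus strand.
Ltb: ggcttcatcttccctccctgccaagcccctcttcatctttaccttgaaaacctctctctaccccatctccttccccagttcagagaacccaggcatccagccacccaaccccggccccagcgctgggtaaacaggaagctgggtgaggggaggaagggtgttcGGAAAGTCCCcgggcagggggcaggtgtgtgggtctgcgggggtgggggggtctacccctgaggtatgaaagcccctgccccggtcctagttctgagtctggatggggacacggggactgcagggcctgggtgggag
Tnfrsf11a: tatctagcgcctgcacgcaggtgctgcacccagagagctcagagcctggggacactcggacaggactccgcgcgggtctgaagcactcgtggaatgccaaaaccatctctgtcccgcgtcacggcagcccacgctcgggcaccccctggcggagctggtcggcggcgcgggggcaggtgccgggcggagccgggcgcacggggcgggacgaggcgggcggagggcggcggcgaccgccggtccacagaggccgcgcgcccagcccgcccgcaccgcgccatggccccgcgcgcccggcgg

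The libraries differed in make-up along with the groups. Mitochondrial genes took 30.5%, 47.6% and 46.7% of the summed FPKM in DSS+DCA libraries 1, 2 and 4, against 29.4% to 31.4% in DSS libraries. Nuclear protein-coding genes took 46.0%, 20.9% and 24.2% in DSS+DCA libraries, against 44.8% to 46.0% in DSS libraries. The cell type label reads intestinal epithelial cells, and 10 epithelial markers summed to 3088 to 5554 FPKM in DSS+DCA libraries and 6344 to 7711 FPKM in DSS libraries. Smooth muscle markers were present too and ranged widely within both groups, from 87.1 to 1460 FPKM over 8 genes in DSS+DCA libraries and from 33.8 to 655 FPKM in DSS libraries. Over the 23 members, DSS replicate 4 lay a median of 0.0854 from the mean of DSS replicates 1 and 2 on the log2(FPKM + 1) scale. Those replicates differed from each other by a median of 0.172. A distance from a mean and a distance between libraries are unlike measures, so these values do not show that replicate 4 lay between the others. Without DSS replicate 4 limma called 0 genes and 0 members, and without DSS+DCA replicate 1 it called 1246 genes and 4 members. The read depth of the libraries is unknown from FPKM. In these bulk libraries, fewer cells of a type and less RNA per cell cannot be told apart.

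Levels spanned a wide range. Averaged over the 6 libraries, 6 members had at least 5 FPKM and 3 of these, Ltbr, Tnfrsf1a and Tnf, at least 10 FPKM. The other 3 were Tnfrsf21, Tnfrsf11a and Fas. At the low end, 17 members had means of 0.0117 to 0.442 FPKM and were not tested, and 6 members were listed at 0 in at least 1 library. All 40 members summed to 149, 108 and 103 FPKM in DSS+DCA libraries 1, 2 and 4, against 168, 147 and 165 FPKM in DSS libraries 1, 2 and 4. As a share of nuclear protein-coding FPKM the sums were 0.0661%, 0.0765% and 0.0653% in DSS+DCA libraries 1, 2 and 4, against 0.0735%, 0.0618% and 0.0701% in DSS libraries 1, 2 and 4, and the groups overlapped.

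**Figure D1:**
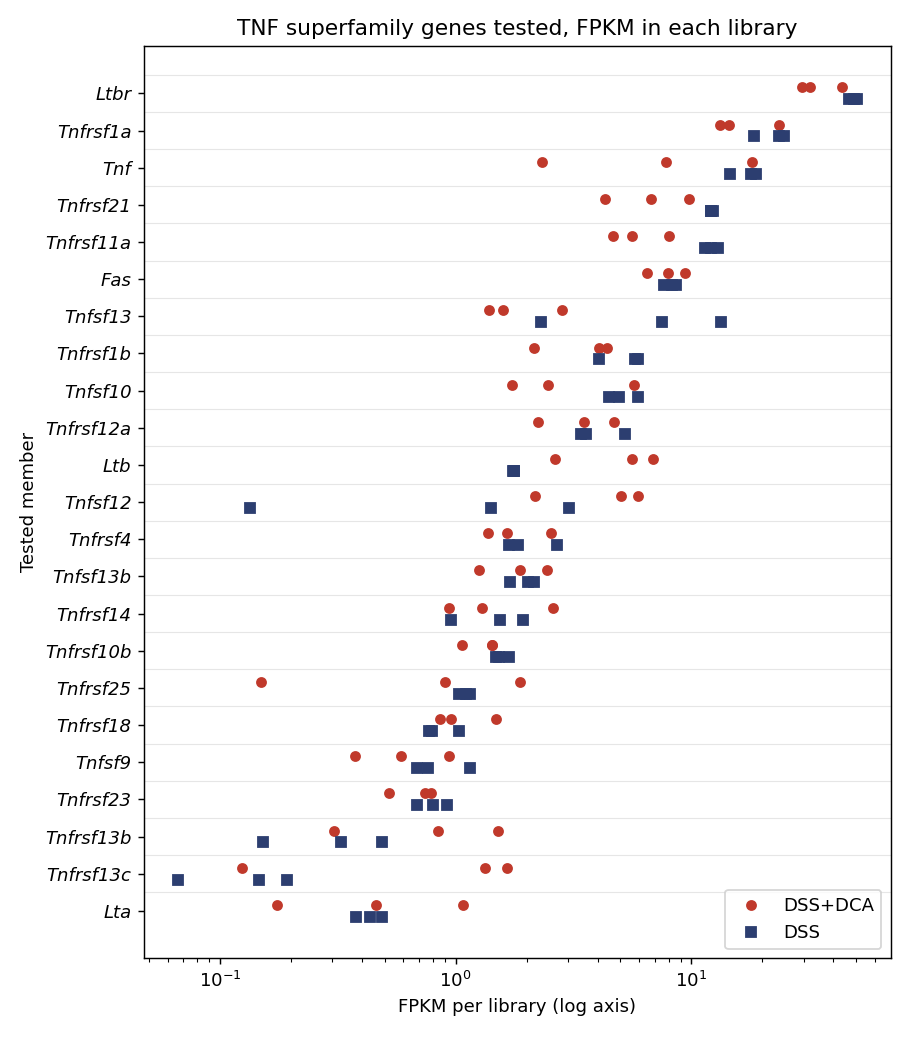
FPKM of the 23 tested members in each library on a log axis, with red circles for the 3 DSS+DCA libraries above blue squares for the 3 DSS libraries in each row, and genes ordered by their mean. Ltb lies wholly to the right and Tnfrsf11a, Tnfrsf21, Ltbr and Tnfrsf10b wholly to the left of the DSS libraries, while the other members overlap.

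Among the receptors, 4 of 15 (26.7%) lay wholly below the DSS libraries on the deposited FPKM, beside 17.8% of all tested genes. After the protein-coding rescaling 2 of 15 (13.3%), Tnfrsf11a and Tnfrsf21, did so, beside 5.39% of all tested genes. Ltbr then overlapped and Tnfrsf10b turned to a log2 change of 0.11. On that rescaled level 4 receptors, Fas, Tnfrsf18, Tnfrsf13c and Tnfrsf13b, lay wholly above the DSS libraries, beside 4304 of the 14611 genes tested. The median fitted log2 change of the receptors was -0.16 on the deposited FPKM. Tnfrsf11a, on chromosome 1 from 105780718 to 105847981 in GRCm38, encodes RANK, which takes part in osteoclast and lymphoid tissue formation and in the making of intestinal M cells. It had 7.99, 4.63 and 5.61 FPKM in DSS+DCA libraries 1, 2 and 4, against 13.0, 11.4 and 12.1 FPKM in DSS libraries 1, 2 and 4. Every DSS+DCA library lay below every DSS library. The log2 change was -0.92 ± 0.21 (SE), the smallest p of any member, with limma's adjusted p = 0.124. It was -1.11 with an adjusted p of 0.0198 without DSS+DCA replicate 1, and -0.53 with an adjusted p of 0.0896 after the protein-coding rescaling. On that rescaled level the groups still did not overlap, with 6.70 to 7.28 in DSS+DCA libraries and 9.84 to 11.6 in DSS libraries.

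Its ligand, RANK ligand (Tnfsf11), was listed at 0.346, 0 and 0.281 FPKM in DSS+DCA libraries 1, 2 and 4, against 0.130, 0.109 and 0.0539 FPKM in DSS libraries 1, 2 and 4. Osteoprotegerin (Tnfrsf11b), the soluble decoy that binds RANK ligand, had 1.02, 0.160 and 0.746 FPKM in DSS+DCA libraries 1, 2 and 4, against 0.226, 0.305 and 0.192 FPKM in DSS libraries 1, 2 and 4. Both averaged too little to be tested. In both, DSS+DCA replicates 1 and 4 were above the DSS libraries and replicate 2 was not.

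Tnfrsf21, a death domain receptor on chromosome 17, had 9.75, 4.31 and 6.76 FPKM in DSS+DCA libraries 1, 2 and 4, against 12.4, 12.1 and 12.1 FPKM in DSS libraries 1, 2 and 4. The DSS libraries were nearly equal and all DSS+DCA libraries were lower, with replicate 2 lowest. Its log2 change was -0.79 ± 0.27, with limma's adjusted p = 0.226, -1.04 with an adjusted p of 0.0394 without DSS+DCA replicate 1, and -0.40 with an adjusted p of 0.184 after the protein-coding rescaling.

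Ltbr, on chromosome 6 from 125306571 to 125313885, binds lymphotoxin beta heterotrimers and LIGHT. It was the most abundant member, with 43.7, 29.5 and 31.7 FPKM in DSS+DCA libraries 1, 2 and 4, against 50.2, 48.8 and 46.6 FPKM in DSS libraries 1, 2 and 4. DSS+DCA replicates 2 and 4 were well below the DSS libraries and replicate 1 a little below. The log2 change was -0.48 ± 0.20, with limma's adjusted p = 0.30. Without DSS+DCA replicate 1 it was -0.65 with an adjusted p of 0.0339, and after the protein-coding rescaling it was -0.04 with an adjusted p of 0.834. On that rescaled level the groups overlapped, with 39.6 to 42.7 in DSS+DCA libraries and 40.4 to 44.9 in DSS libraries. These 3 receptors were highest in DSS+DCA replicate 1, which also had the highest epithelial marker sum and the lowest mitochondrial share of its group, and the part of either in the result was not tested.

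Of the receptors of TNF itself, the widely expressed Tnfrsf1a had 23.5, 13.2 and 14.4 FPKM in DSS+DCA libraries 1, 2 and 4, against 24.6, 18.5 and 23.5 FPKM in DSS libraries 1, 2 and 4. Replicates 2 and 4 of DSS+DCA were below all DSS libraries and replicate 1 was within them. The log2 change of Tnfrsf1a was -0.40 ± 0.26 (limma, adjusted p = 0.466), and 0.03 after the protein-coding rescaling. The mainly leukocyte receptor Tnfrsf1b had 4.40, 4.04 and 2.15 FPKM in DSS+DCA libraries 1, 2 and 4, against 5.94, 4.06 and 5.76 FPKM in DSS libraries 1, 2 and 4. Its groups overlapped, DSS+DCA replicate 4 was lowest, and the log2 change was -0.49 ± 0.26 (limma, adjusted p = 0.385). After the protein-coding rescaling they overlapped too, with 2.79 to 5.85 in DSS+DCA libraries and 3.49 to 5.31 in DSS libraries.

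The death receptors Fas and Tnfrsf10b stood close to their DSS levels on the deposited FPKM. Fas had 9.41, 7.95 and 6.51 FPKM in DSS+DCA libraries 1, 2 and 4, against 8.25, 7.62 and 8.57 FPKM in DSS libraries 1, 2 and 4. DSS+DCA libraries lay on both sides of the DSS libraries, and the log2 change was -0.04 ± 0.18 (limma, adjusted p = 0.930). It was 0.36 after the protein-coding rescaling. On that rescaled level Fas lay wholly above, with 8.45 to 11.5 in DSS+DCA libraries and 6.55 to 7.43 in DSS libraries. Tnfrsf10b, the mouse receptor of TRAIL, had 1.43, 1.06 and 1.42 FPKM in DSS+DCA libraries 1, 2 and 4, against 1.52, 1.68 and 1.48 FPKM in DSS libraries 1, 2 and 4. The DSS+DCA libraries were the lower ones by a narrow gap, with a log2 change of -0.16 ± 0.15 (limma, adjusted p = 0.627) and of 0.11 after the protein-coding rescaling.

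The costimulatory receptors of T cells and the TWEAK receptor gave overlapping groups on the deposited FPKM. TWEAK receptor Tnfrsf12a ranged from 2.23 to 4.69 FPKM in DSS+DCA libraries and from 3.40 to 5.22 FPKM in DSS libraries, with a log2 change of -0.20 ± 0.26. OX40 (Tnfrsf4) ranged from 1.38 to 2.53 FPKM in DSS+DCA libraries and from 1.68 to 2.70 FPKM in DSS libraries. HVEM (Tnfrsf14), which binds LIGHT and BTLA, had 2.58, 0.937 and 1.29 FPKM in DSS+DCA libraries 1, 2 and 4, against 1.93, 0.955 and 1.54 FPKM in DSS libraries 1, 2 and 4. Replicate 2 was the lowest library of HVEM in both groups. GITR (Tnfrsf18) had a log2 change of 0.16 ± 0.17 (limma, adjusted p = 0.659), and 414 of its exonic bases are shared with an antisense gene. DR3 (Tnfrsf25), the receptor of TL1A, had 0.897, 0.150 and 1.87 FPKM in DSS+DCA libraries 1, 2 and 4, against 1.15, 1.10 and 1.04 FPKM in DSS libraries 1, 2 and 4. The DSS libraries of Tnfrsf25 were nearly equal and the DSS+DCA libraries lay on both sides of them. The decoy receptor Tnfrsf23 lies beside its near copies Tnfrsf22 and Tnfrsf26 on chromosome 7, and reads shared between them make its value uncertain.

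**Figure D2:**
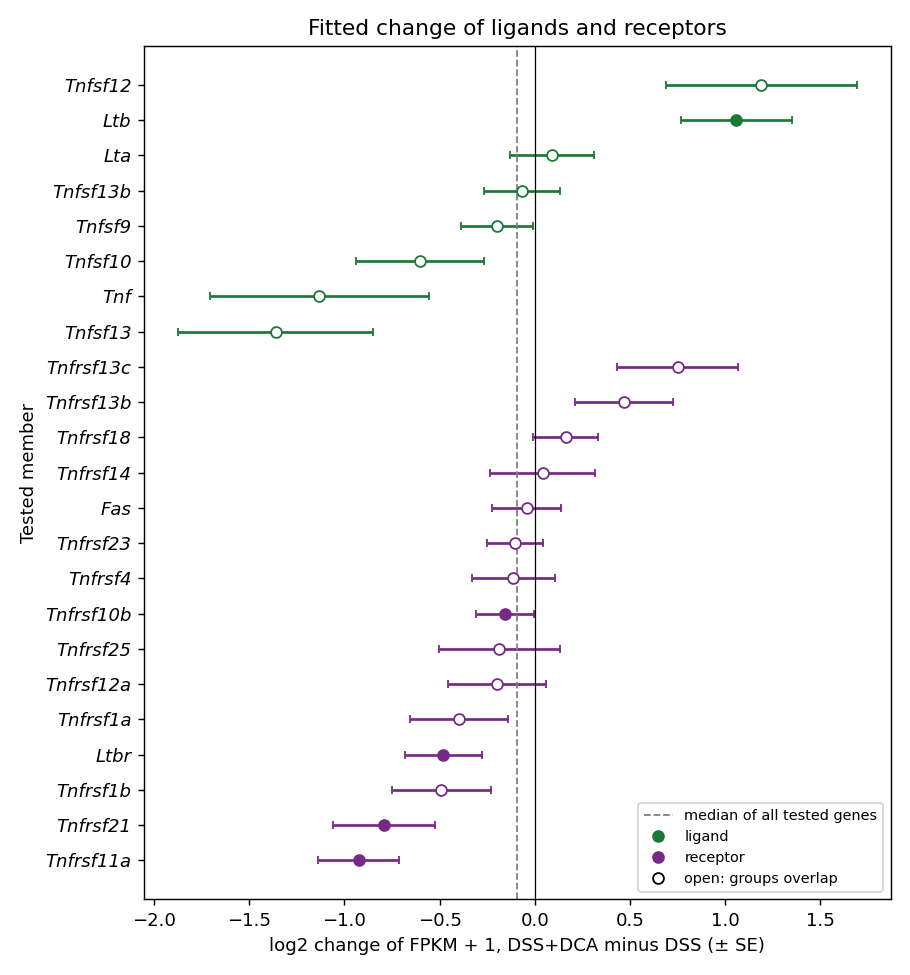
Fitted log2 change of FPKM + 1 (DSS+DCA minus DSS) with its SE for the 23 tested members, ligands in green and receptors in purple, filled where the groups did not overlap, with a dashed line at the median of all tested genes, -0.09. Tnfsf12 and Ltb have the highest values, 1.19 and 1.06, and Tnfsf13 and Tnf the lowest, -1.36 and -1.13.

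Of the 8 tested ligands, 5 (62.5%) had a fitted change below 0, beside 60.5% of all tested genes. The other 3 were above it, and the median was -0.13. Tnfsf13b and Tnfsf9 turned above 0 after the protein-coding rescaling, which left 3 (37.5%) below, beside 25.1% of all tested genes. Ltb alone (12.5%) had groups that did not overlap on the deposited FPKM, beside 23.6% of all tested genes in either direction and 5.8% wholly above. After the rescaling Ltb and Tnfsf12 lay wholly above the DSS libraries, beside 4304 of the 14611 genes tested. Tnf, the cytokine that gives the family its name, lies between Ltb and Lta on chromosome 17, from 35199381 to 35202007. It had 7.81, 18.1 and 2.32 FPKM in DSS+DCA libraries 1, 2 and 4, against 18.8, 14.6 and 17.9 FPKM in DSS libraries 1, 2 and 4. Replicate 2 of DSS+DCA was within the DSS libraries and the other two were below them. The log2 change of Tnf was -1.13 ± 0.58, with limma's adjusted p = 0.371. It was -1.74 with an adjusted p of 0.0930 without DSS+DCA replicate 2, and -0.47 with an adjusted p of 0.617 without DSS+DCA replicate 4. After the protein-coding rescaling Tnf stood at 7.07, 26.2 and 3.01 in DSS+DCA libraries 1, 2 and 4. The DSS libraries 1, 2 and 4 stood at 16.9, 12.6 and 15.5, so replicate 2 of DSS+DCA was above them all. The 7 neutrophil markers summed to 19.3, 84.0 and 7.42 FPKM in DSS+DCA libraries 1, 2 and 4, against 18.3, 24.6 and 24.97 FPKM in DSS libraries 1, 2 and 4. Most of this sum was Ly6g, with 15.7, 72.3 and 1.79 FPKM in DSS+DCA libraries 1, 2 and 4, against 15.9, 13.7 and 18.6 FPKM in DSS libraries 1, 2 and 4, while Mpo, Elane and Cxcr2 were at 0.161 FPKM or less in every library. Of the other neutrophil markers, S100a8 had 0.311, 4.83 and 1.97 FPKM and S100a9 had 3.10, 6.25 and 3.37 FPKM in DSS+DCA libraries 1, 2 and 4. Csf3r had 0.187, 0.372 and 0.257 FPKM in the same libraries. Within DSS+DCA, replicate 2 was highest in Tnf and in Ly6g, S100a8, S100a9 and Csf3r, whereas replicate 4 was lowest in Tnf and Ly6g and replicate 1 in the other 3. The part of neutrophils in the result was not tested.

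TRAIL (Tnfsf10), the ligand of Tnfrsf10b, had 5.71, 1.73 and 2.48 FPKM in DSS+DCA libraries 1, 2 and 4, against 5.94, 4.45 and 4.91 FPKM in DSS libraries 1, 2 and 4. DSS+DCA replicate 1 was within the DSS libraries and the other two were below them. Its log2 change was -0.60 ± 0.33 (limma, adjusted p = 0.404), and -0.98 with an adjusted p of 0.0400 without DSS+DCA replicate 1 and -0.27 after the protein-coding rescaling. BAFF (Tnfsf13b), a survival factor of B cells, had 1.87, 2.45 and 1.26 FPKM in DSS+DCA libraries 1, 2 and 4, against 2.03, 1.69 and 2.16 FPKM in DSS libraries 1, 2 and 4, with DSS+DCA on both sides of DSS. The log2 change of BAFF was -0.07 ± 0.20 (limma, adjusted p = 0.890), and 0.23 after the protein-coding rescaling. 4-1BB ligand (Tnfsf9) ranged from 0.375 to 0.936 FPKM in DSS+DCA libraries and from 0.683 to 1.16 FPKM in DSS libraries.

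Ltb, on chromosome 17 from 35194439 to 35196320, is made by lymphocytes and anchors lymphotoxin alpha (Lta) to the cell surface. It had 6.88, 2.65 and 5.62 FPKM in DSS+DCA libraries 1, 2 and 4, against 1.77, 1.76 and 1.75 FPKM in DSS libraries 1, 2 and 4. The DSS libraries were nearly equal, DSS+DCA replicates 1 and 4 were far above them and replicate 2 less so. The log2 change was 1.06 ± 0.29, with limma's adjusted p = 0.167. It was 1.39 with an adjusted p of 0.0348 without DSS+DCA replicate 2, 0.83 with an adjusted p of 0.120 without DSS+DCA replicate 1, and 1.38 with an adjusted p of 0.0514 after the protein-coding rescaling. Lta had 0.458, 0.175 and 1.07 FPKM in DSS+DCA libraries 1, 2 and 4, against 0.434, 0.379 and 0.486 FPKM in DSS libraries 1, 2 and 4, with a log2 change of 0.09 ± 0.22 (limma, adjusted p = 0.865). Its groups overlapped, and DSS+DCA replicate 4 was highest.

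The BAFF and APRIL receptors of B cells had the same pair of high libraries. BAFF receptor (Tnfrsf13c), needed for mature B cell survival, had 1.65, 0.124 and 1.33 FPKM in DSS+DCA libraries 1, 2 and 4, against 0.193, 0.0665 and 0.146 FPKM in DSS libraries 1, 2 and 4. Replicate 2 of DSS+DCA lay within the DSS libraries and the other two were several times higher. The ratio of the means was 7.65 and the log2 change 0.75 ± 0.32 (limma, adjusted p = 0.302), or 1.13 with an adjusted p of 0.0408 without DSS+DCA replicate 2. TACI (Tnfrsf13b) had 1.51, 0.305 and 0.839 FPKM in DSS+DCA libraries 1, 2 and 4, against 0.152, 0.486 and 0.327 FPKM in DSS libraries 1, 2 and 4, with a log2 change of 0.47 ± 0.26 (limma, adjusted p = 0.398). DSS+DCA replicates 1 and 4 again lay above the DSS libraries and replicate 2 within them. Tnfrsf13c, Tnfrsf13b and Lta averaged under 0.5 FPKM in DSS libraries and reached the mean for testing through the DSS+DCA libraries, so a higher DSS+DCA value was in part set by that filter.

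B cell markers, 8 genes, summed to 34.9, 1.93 and 31.1 FPKM in DSS+DCA libraries 1, 2 and 4, against 3.19, 1.95 and 2.31 FPKM in DSS libraries 1, 2 and 4. Of these markers 4 were tested, all with a fitted change above 0 and 0 called (limma, smallest adjusted p = 0.273). All 8 were higher in DSS+DCA replicates 1 and 4 than in any DSS library, and Fcer2a was listed at 0 in replicate 2 of both groups. T cell markers, 9 genes, summed to 13.6, 9.75 and 12.0 FPKM in DSS+DCA libraries 1, 2 and 4, against 6.36, 7.17 and 6.68 FPKM in DSS libraries 1, 2 and 4. DSS+DCA replicates 1 and 4, the libraries high in Ltb, Tnfrsf13c and Tnfrsf13b, were high in B cell markers. These libraries were also above every DSS library in summed markers of smooth muscle, endothelium, macrophages and monocytes, and enteric neurons and glia. Smooth muscle markers summed to 1460, 87.1 and 1040 FPKM in DSS+DCA libraries 1, 2 and 4, against 33.8, 655 and 326 FPKM in DSS libraries 1, 2 and 4. Of the 9 T cell markers, 5 (Cd2, Cd3d, Cd5, Cd8a and Lck) were higher in all DSS+DCA libraries, while Cd3e, Cd3g, Cd4 and Cd28 overlapped between the groups. The part of these cells in the values of the members was not tested.

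**Figure D3:**
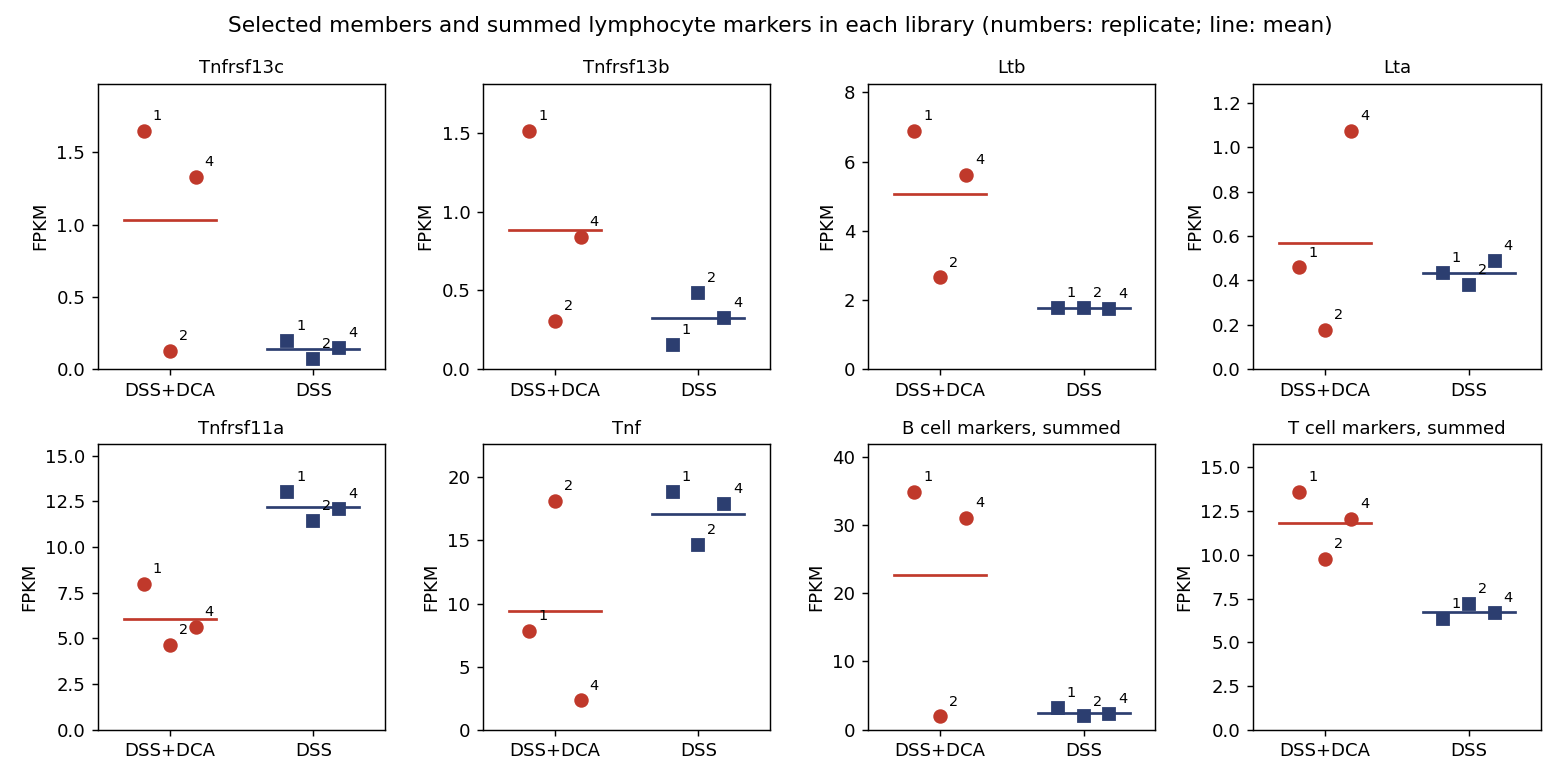
FPKM of Tnfrsf13c, Tnfrsf13b, Ltb, Lta, Tnfrsf11a and Tnf, and summed FPKM of 8 B cell and 9 T cell markers, in each library of DSS+DCA (left, red) and DSS (right, blue), with replicate numbers beside the points and lines at the means. DSS+DCA replicates 1 and 4 are high in B cell markers, Tnfrsf13c, Tnfrsf13b and Ltb, whereas Tnf is highest of its group in DSS+DCA replicate 2.

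Among the 17 members too low to test, the groups did not overlap in 2, or 11.8%, beside 13.5% of the 17029 untested genes whose means lay in the same range. Fas ligand (Fasl), a killer molecule of T and NK cells, had 0.226, 0.522 and 0.306 FPKM in DSS+DCA libraries 1, 2 and 4, against 0.110, 0.126 and 0.149 FPKM in DSS libraries 1, 2 and 4. All DSS+DCA libraries of Fasl were above all DSS libraries, by 2.73-fold in the mean. BCMA (Tnfrsf17), the APRIL receptor of plasma cells, was listed at 0, 0 and 0.0694 FPKM in DSS+DCA libraries 1, 2 and 4, against 0.324, 0.955 and 0.170 FPKM in DSS libraries 1, 2 and 4, the reverse order. The 5 plasma cell markers, Tnfrsf17 among them, summed to 23.7 to 53.0 FPKM in DSS+DCA libraries and 39.4 to 66.7 FPKM in DSS libraries, with overlap. Sdc1 was most of this sum in every library. It had 47.3, 19.5 and 21.5 FPKM in DSS+DCA libraries 1, 2 and 4, against 38.1, 33.9 and 40.1 FPKM in DSS. The fitted log2 change was -0.98 for Jchain and 0.30 for Mzb1, and neither was called. Cd40, the antigen-presenting cell receptor of Cd40lg, had 0.431, 0.151 and 0.224 FPKM in DSS+DCA libraries 1, 2 and 4, against 0.147, 0.282 and 0.166 FPKM in DSS libraries 1, 2 and 4. TL1A (Tnfsf15), the ligand of DR3, had 0.110, 0.259 and 0.212 FPKM in DSS+DCA libraries 1, 2 and 4, against 0.429, 0.278 and 0.201 FPKM in DSS libraries 1, 2 and 4. The groups of Cd40 and of TL1A overlapped. LIGHT (Tnfsf14), a second ligand of Ltbr, had 0.104, 0.352 and 0.261 FPKM in DSS+DCA libraries 1, 2 and 4, against 0.0330, 0.0294 and 0.160 FPKM in DSS libraries 1, 2 and 4, with overlap at DSS+DCA replicate 1. Cd40lg and OX40 ligand (Tnfsf4) were listed at 0 in all DSS libraries and in 1 or more DSS+DCA libraries. Groups overlapped too in Cd27, Tnfrsf8, Tnfrsf9, Tnfrsf19, Tnfrsf22, Tnfrsf26, Tnfsf8 and Tnfsf18, all under the mean needed for testing.

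TWEAK (Tnfsf12) and APRIL (Tnfsf13) are neighbours on the minus strand of chromosome 11, from 69682846 to 69695849 together, and had fitted changes of opposite sign. TWEAK had 5.91, 2.16 and 5.01 FPKM in DSS+DCA libraries 1, 2 and 4, against 0.134, 3.03 and 1.42 FPKM in DSS libraries 1, 2 and 4. DSS+DCA replicates 1 and 4 were above the DSS libraries and replicate 2 within them, and the log2 change was 1.19 ± 0.50 (limma, adjusted p = 0.297), or 0.70 with an adjusted p of 0.585 without DSS replicate 1. Rescaled, it was 1.48 with an adjusted p of 0.121, and the groups of TWEAK did not overlap. APRIL had 1.59, 2.82 and 1.39 FPKM in DSS+DCA libraries 1, 2 and 4, against 7.47, 2.31 and 13.3 FPKM in DSS libraries 1, 2 and 4. DSS replicate 2 lay among the DSS+DCA libraries and the other two DSS libraries were higher. The log2 change of APRIL was -1.36 ± 0.51 (limma, adjusted p = 0.265), and -0.88 with an adjusted p of 0.571 without DSS replicate 4.

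Both genes share exons with a read-through gene, Tnfsfm13, which covers 731 of the 1515 exonic bases of Tnfsf12 and 983 of the 1637 of Tnfsf13 in GENCODE M21. Tnfsfm13 had 4.25, 0.805 and 4.23 FPKM in DSS+DCA libraries 1, 2 and 4, against 5.91, 4.28 and 2.48 FPKM in DSS libraries 1, 2 and 4. Fragments in shared exons can be given to any of these models, so the single values are uncertain. The 3 genes together summed to 11.8, 5.79 and 10.6 FPKM in DSS+DCA libraries 1, 2 and 4, against 13.5, 9.63 and 17.2 FPKM in DSS libraries 1, 2 and 4. The sums overlapped, with means of 9.39 ± 3.17 FPKM in DSS+DCA libraries and 13.4 ± 3.78 FPKM in DSS libraries (SD, n = 3 each), a ratio of 0.699.

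The antisense gene Tnfsf13os, which shares 221 exonic bases with Tnfsf13 on the opposite strand, passed the test. It had 4.43, 2.68 and 3.87 FPKM in DSS+DCA libraries 1, 2 and 4, against 12.4, 11.5 and 11.9 FPKM in DSS libraries 1, 2 and 4. All DSS+DCA libraries were far below all DSS libraries, and the log2 change was -1.49 ± 0.19 (limma, adjusted p = 0.0347). It was -1.12 with an adjusted p of 0.0365 after the protein-coding rescaling. The call was lost without a filter on low values (adjusted p = 0.116), with the replicate block (adjusted p = 0.174), and without DSS+DCA replicate 4 (adjusted p = 0.108) or DSS replicate 1, 2 or 4 (adjusted p = 0.178, 0.125 and 0.192). The libraries were made with a strand-marking kit, but the sources used here do not say whether counting used the strand. Without strand, reads lying within the 221 shared exonic bases cannot be assigned to Tnfsf13 or Tnfsf13os.

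**Figure D4:**
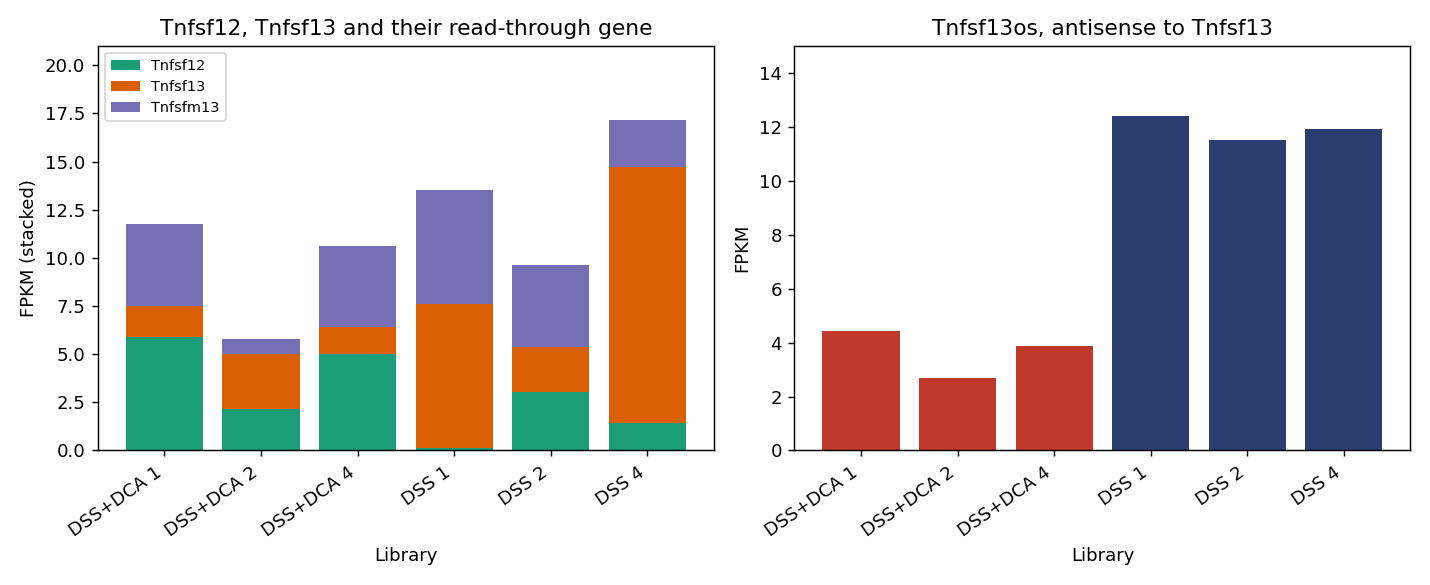
Stacked FPKM of Tnfsf12, Tnfsf13 and their read-through gene Tnfsfm13 (left), and FPKM of the antisense gene Tnfsf13os (right), as bars for each library with the 3 DSS+DCA libraries left of the 3 DSS libraries. The make-up of the stacks differs between libraries of 1 group, while Tnfsf13os is at 2.68 to 4.43 FPKM in DSS+DCA and 11.5 to 12.4 FPKM in DSS.

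Downstream of the receptors, 66 genes of the pathway were listed by role and 57 of them were tested. Of these 0 were called by limma, 14 had an unadjusted p under 0.05 (12 lower and 2 higher in DSS+DCA, or 24.6%), and 18 had groups that did not overlap (17 lower and 1 higher, or 31.6%). The shares over all tested genes were 16.7% and 23.6%. The median fitted log2 change was -0.23 as measured, beside -0.09 over all tested genes, and 0.13 after the protein-coding rescaling, beside 0.23. Under that rescaling 36 of the 57 were above 0, beside 10945 of the 14611 genes tested.

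Of 15 adaptors and death effectors 11 (73.3%) had a fitted change below 0, beside 60.5% of all tested genes, and 5 (33.3%) lay wholly below the DSS libraries, beside 17.8%. After the protein-coding rescaling 8 (53.3%) were below 0, beside 25.1% of all tested genes, and 0 lay wholly below, beside 5.39%. On that rescaled level 4 of the 15 lay wholly above the DSS libraries, beside 4304 of the 14611 genes tested. Caspase 8 (Casp8), the initiator caspase of death receptors, had 37.5, 44.5 and 27.4 FPKM in DSS+DCA libraries 1, 2 and 4, against 74.3, 47.0 and 64.1 FPKM in DSS libraries 1, 2 and 4. DSS replicate 2 was close to the DSS+DCA libraries, and the log2 change was -0.75 ± 0.26 (limma, adjusted p = 0.242). With the protein-coding rescaling it was -0.31 and the groups of Casp8 overlapped. The necroptosis kinase Ripk3 had 17.9, 34.3 and 14.4 FPKM in DSS+DCA libraries 1, 2 and 4, against 55.0, 38.8 and 34.4 FPKM in DSS libraries 1, 2 and 4, with a log2 change of -0.98 ± 0.35 (limma, adjusted p = 0.245). The gap between the groups of Ripk3 was narrow at DSS+DCA replicate 2. After the protein-coding rescaling its log2 change was -0.54, and DSS+DCA replicate 2, at 49.6, lay above the DSS libraries at 49.2, 33.3 and 29.8.

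Of 7 tested ubiquitin ligases and editors 4 lay wholly below the DSS libraries (57.1%). Of 16 IKK and NF-κB genes 4 did (25%), beside 17.8% of all tested genes. After the protein-coding rescaling 1 of each list did, Tnfaip3 (14.3%) and Nfkbia (6.25%), beside 5.39% of all tested genes. On that rescaled level 2 of the 7 and 4 of the 16 lay wholly above the DSS libraries, beside 4304 of the 14611 genes tested. On the deposited FPKM the deubiquitinases Cyld and Otulin had fitted changes above 0, and their groups overlapped. Tnfaip3, the ubiquitin editor A20, had 4.83, 4.42 and 2.17 FPKM in DSS+DCA libraries 1, 2 and 4, against 9.75, 7.61 and 8.89 FPKM in DSS libraries 1, 2 and 4. Its partner Tnip1 had 13.9, 11.6 and 14.4 FPKM in DSS+DCA libraries 1, 2 and 4, against 20.2, 19.1 and 20.7 FPKM in DSS libraries 1, 2 and 4. Both were lower in all DSS+DCA libraries, with log2 changes of -1.06 ± 0.26 for Tnfaip3 (limma, adjusted p = 0.142) and -0.56 ± 0.17 for Tnip1 (limma, adjusted p = 0.185). The inhibitor Nfkbia, which holds NF-κB in the cytoplasm, had 35.7, 25.5 and 24.9 FPKM in DSS+DCA libraries 1, 2 and 4, against 46.8, 49.4 and 48.9 FPKM in DSS libraries 1, 2 and 4. Its log2 change was -0.75 ± 0.20 (limma, adjusted p = 0.161), and that of the related inhibitor Nfkbib -0.62 ± 0.22 (limma, adjusted p = 0.250). Both inhibitors were lower in all DSS+DCA libraries. After the protein-coding rescaling the log2 changes were closer to 0, at -0.69 for Tnfaip3, -0.14 for Tnip1, -0.31 for Nfkbia and -0.20 for Nfkbib, and the rescaled groups overlapped for Tnip1 and Nfkbib. Without DSS+DCA replicate 1 limma called Nfkbia (adjusted p = 0.0185) and Nfkbib (adjusted p = 0.0363).

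Of 11 tested response genes 8 (72.7%) had a fitted change below 0, beside 60.5% of all tested genes. After the protein-coding rescaling 4 (36.4%) did, beside 25.1%. Bcl3, a nuclear IκB protein, had 17.4, 20.8 and 14.5 FPKM in DSS+DCA libraries 1, 2 and 4, against 46.4, 38.6 and 42.1 FPKM in DSS libraries 1, 2 and 4. All DSS+DCA libraries were below all DSS libraries. The log2 change of Bcl3 was -1.23 ± 0.20 (limma, adjusted p = 0.0555), the smallest adjusted p of the pathway. It was called with the filter at a mean of 2 FPKM (adjusted p = 0.0447), without DSS+DCA replicate 1 (adjusted p = 0.0284) and without DSS+DCA replicate 2 (adjusted p = 0.0444), and was -0.80 with an adjusted p of 0.125 after the protein-coding rescaling. Cxcl1, a neutrophil chemokine, was listed at 0.151, 0.388 and 0 FPKM in DSS+DCA libraries 1, 2 and 4, against 0.899, 1.35 and 2.01 FPKM in DSS libraries 1, 2 and 4, with a log2 change of -1.02 ± 0.22 (limma, adjusted p = 0.113). All DSS+DCA libraries of Cxcl1 were lower. Cxcl1 averaged 0.180 FPKM in DSS+DCA libraries and reached the mean for testing through the DSS libraries, so its direction was in part set by that filter.

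The lymphotoxin beta receptor's response genes include chemokines of lymphoid stroma, and 2 of 5 were tested. Of the 3 too low to test, Ccl19 (0.0726 to 1.04 FPKM) and Glycam1 (0.0918 to 0.187 FPKM) were above 0 in all DSS+DCA libraries. Both were listed at 0 in all DSS libraries, and Il22ra2 overlapped between the groups. Groups did not overlap in 13.5% of the 17029 untested genes whose means lay in the range of the untested members. Cxcl13, which draws B cells into follicles, had 7.78, 2.07 and 10.01 FPKM in DSS+DCA libraries 1, 2 and 4, against 3.15, 2.65 and 3.10 FPKM in DSS libraries 1, 2 and 4. Ccl21a, which draws T cells and dendritic cells and has near-identical copies that make its value uncertain, had 26.7, 5.76 and 54.1 FPKM in DSS+DCA libraries 1, 2 and 4, against 0.238, 11.1 and 4.30 FPKM in DSS libraries 1, 2 and 4. In Cxcl13 and Ccl21a, DSS+DCA replicates 1 and 4 were above the DSS libraries and replicate 2 was not. Summed markers of B cells, smooth muscle, endothelium, macrophages and monocytes, and enteric neurons and glia had the same pattern. Among DSS libraries Ccl21a and smooth muscle markers were lowest in replicate 1 and highest in replicate 2, whereas B cell markers were highest in replicate 1 and lowest in replicate 2. The part of any of these cells was not tested. The log2 changes were 0.75 ± 0.45 for Cxcl13 (limma, adjusted p = 0.438) and 2.34 ± 1.00 for Ccl21a (limma, adjusted p = 0.302). Without DSS+DCA replicate 2 Cxcl13 was called, at 1.31 with an adjusted p of 0.0444.

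The shedding list, 5 genes, had 4 fitted changes above 0 and 1 (20%) below, beside 60.5% of all tested genes below. The median was 0.37, beside -0.09 over all tested genes, and 0.62 after the protein-coding rescaling, beside 0.23. The protease Adam17 ranged from 2.48 to 3.19 FPKM in DSS+DCA libraries and from 0.251 to 3.86 FPKM in DSS libraries. Its log2 change was 0.57 ± 0.46 (limma, adjusted p = 0.557). The protease Adam10 had 2.01, 1.13 and 0.689 FPKM in DSS+DCA libraries 1, 2 and 4, against 1.17, 0.287 and 0.603 FPKM in DSS libraries 1, 2 and 4, with overlap. Frmd8, which steadies the iRhom and TACE shedding complex, had 6.35, 3.65 and 4.95 FPKM in DSS+DCA libraries 1, 2 and 4, against 6.60, 7.22 and 6.49 FPKM in DSS libraries 1, 2 and 4, and was lower in all DSS+DCA libraries. Their log2 changes were 0.42 ± 0.28 for Adam10 (limma, adjusted p = 0.476) and -0.40 ± 0.21 for Frmd8 (limma, adjusted p = 0.376), which was -0.022 after the protein-coding rescaling.

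Of 5 family members known under other symbols 1 was tested. Ngfr, the nerve growth factor receptor of neurons and glia, was listed at 3.99, 0.170 and 2.37 FPKM in DSS+DCA libraries 1, 2 and 4, against 0, 0.320 and 0.225 FPKM in DSS libraries 1, 2 and 4, with a log2 change of 1.20 ± 0.50 (limma, adjusted p = 0.295). DSS+DCA replicates 1 and 4 were high, and without DSS+DCA replicate 2 limma called Ngfr, at 1.80 with an adjusted p of 0.0368. Ngfr averaged 0.182 FPKM in DSS libraries and reached the mean for testing through the DSS+DCA libraries, so its direction was in part set by that filter. The 6 markers of enteric neurons and glia summed to 47.1, 3.30 and 27.8 FPKM in DSS+DCA libraries 1, 2 and 4, against 1.04, 9.55 and 5.21 FPKM in DSS libraries 1, 2 and 4, with the same 2 high libraries, and their part in the result was not tested.

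**Figure D5:**
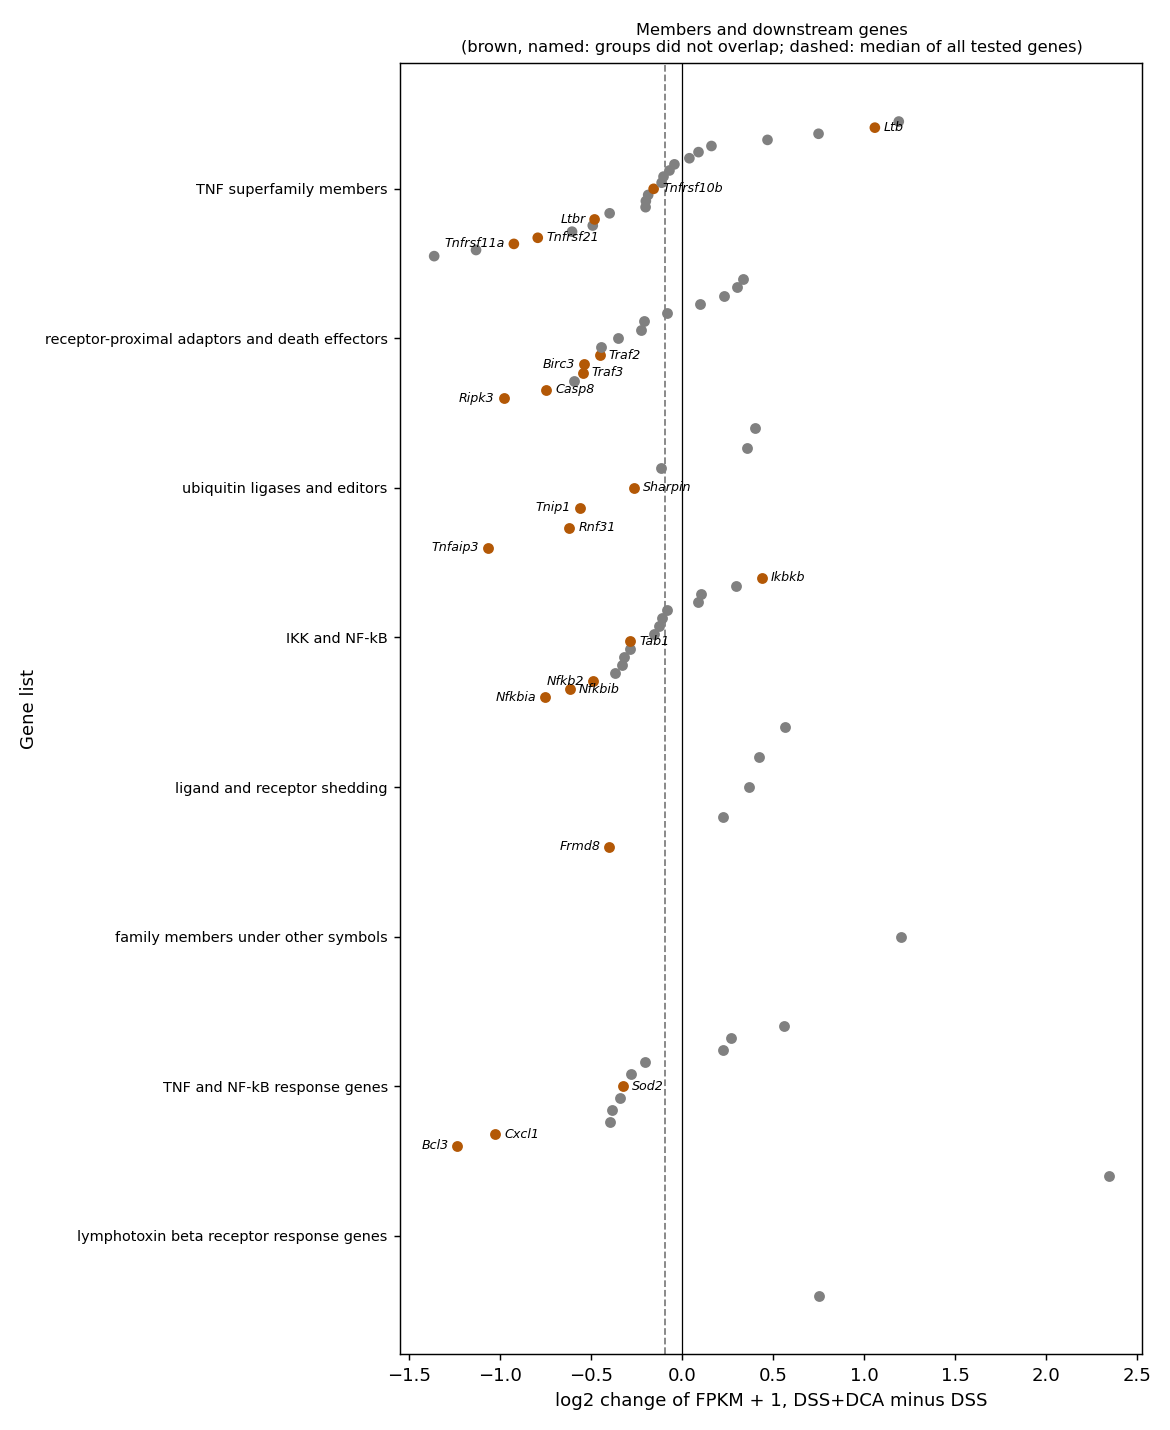
Fitted log2 change of FPKM + 1 (DSS+DCA minus DSS) of the 23 tested members and 57 tested pathway genes by list, 1 point per gene, brown and named where the groups did not overlap and grey otherwise, with a dashed line at the median of all tested genes. The named points lie mostly left of 0, with Bcl3, Tnfaip3 and Cxcl1 furthest left at -1.23, -1.06 and -1.02, and Ltb furthest right among them.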

How the data were processed

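Colonic RNA-seq of 6 libraries, 3 DSS+DCA and 3 DSS, was used as the authors deposited it, as gene-level FPKM in every library, per the file headers. The authors' fold (a ratio of DSS+DCA over DSS), its log2 value, p-values and q-values are deposited in further columns, per the file headers, and were used only to describe the authors' calls. The submitters' processing notes name DESeq2, edgeR, StringTie 2.1.6, HISAT2 2.2.1 and cutadapt 1.9 without their roles. The build, the depth and whether counting used the strand are not given in the sources.

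Genes averaging 0.5 FPKM or more were tested as log2(FPKM + 1), with a pseudocount of 1, by limma 3.58.1 (lmFit, eBayes with a trend) in R 4.3.3, two-sided and without covariates, with Benjamini-Hochberg adjustment over all 14611 genes. Log2 changes understate the change of low genes, and a value of 0 means only listed at 0. Errors of means are SD and errors of log2 changes SE. The script was tested on simulated data. Gene models came from GENCODE M21 (GRCm38), which held 36870 of 36977 identifiers and all 40 members, and promoter windows from RefSeq (GRCm38.p6).

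The members, the gene lists and the tests were chosen with earlier results of these data known. Values per library were given for the 12 tested members of smallest p, those with groups that did not overlap and a log2 change of at least 0.5 in size, a list of core ligands and receptors, and the 2 genes of smallest p in each pathway list. The values of Tnfrsf17, Tnfsf14 and Tnfsf13os, outside that rule, were chosen for description after they were seen. Those of Tnfsfm13, and the ranges of Adam17, Ccl19 and Glycam1, also fell outside it. So did the values of Fasl, Tnfsf11, Tnfrsf11b, Tnfsf15 and Cd40, since the rule took core genes only where tested. Results were recomputed with a pseudocount of 0.1, without a filter, with a filter at 2 FPKM, with TMM-style scaling, after rescaling to the nuclear protein-coding sum, with a replicate block and without each library in turn. Figures were drawn with matplotlib 3.10.9 in Python 3.11.15, and pandas 2.3.3 and data.table (version 1.17.8) handled the files.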

Additional observations from a re-analysis of the deposited data

How the results depend on the processing

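The count of called genes, 82, became 2 without a filter, 132 with TMM-style scaling (32 higher and 100 lower in DSS+DCA), 124 after the protein-coding rescaling and 1 with the replicate block, and ranged from 0 to 1246 when single libraries were left out. It was 1246 without DSS+DCA replicate 1, 171 without replicate 2 and 10 without replicate 4, and 0, 17 and 0 without DSS replicates 1, 2 and 4. The cause was not tested. Called members, 0 as reported, ranged from 0 to 4 when single libraries were left out. They were Ltbr, Tnfrsf11a, Tnfrsf21 and Tnfsf10 without DSS+DCA replicate 1, and Ltb and Tnfrsf13c without DSS+DCA replicate 2. Called pathway genes, 0 as reported, were 1 (Bcl3) with the filter at 2 FPKM and ranged from 0 to 3 with single libraries left out. The member median, -0.16, was 0.016 without a filter, -0.48 with the filter at 2 FPKM, where fewer genes are tested, and 0.11 after the protein-coding rescaling, and lay between -0.21 and -0.13 with single libraries left out.

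The replicate block left 0 members called, with a smallest adjusted p of 0.286. Same-numbered libraries did not deviate together, with correlations of -0.14, -0.17 and 0.02, so the numbers were not read as a pairing.

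Single members turned sign as follows. With TMM-style scaling Fas was 0.081 and Tnfsf13b 0.024. After the protein-coding rescaling Tnfrsf1a was 0.028, Tnfrsf10b 0.11, Tnfrsf12a 0.15, Tnfsf9 0.018, Tnfrsf23 0.095, Tnfrsf25 0.0033, Fas 0.36, Tnfrsf4 0.20 and Tnfsf13b 0.23. With single libraries left out the read-through gene Tnfsfm13 ranged from -0.72 to 0.061, Tnfrsf14 ranged from -0.21 to 0.23, Tnfrsf4 from -0.28 to 0.030, Tnfrsf25 from -0.51 to 0.15, Lta from -0.13 to 0.28, Tnfrsf12a from -0.39 to 0.018, Fas from -0.16 to 0.079 and Tnfsf13b from -0.21 to 0.092. The direction of Ltb, Tnfrsf11a, Tnfrsf21, Ltbr, Tnf, Tnfsf10, Tnfsf12, Tnfsf13, Tnfrsf13c and Tnfrsf13b held under every alternative run.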
